A study of Nicotiana tabacum with 30 samples.

Results

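In leaves of tobacco (Nicotiana tabacum), 509 of 35519 gene IDs were both abundant and steady through a short drought series in 2 genotypes. Such a gene had a mean of at least 50 FPKM (fragments per kilobase of transcribed sequence, scaled to the size of the library) over 30 libraries. Its 10 group means of log2(FPKM + 1) also lay within 0.5 of each other, so that its highest group was less than 1.41-fold above its lowest on that scale. They made up 19.3% of the 2632 genes at 50 FPKM or more, called abundant genes here. The genes were thus chosen by their measured values in all 30 libraries, and the small differences between groups described below are bounded by that choice and are given as a description.

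The groups were the cultivar K326 and M28, a mutant line derived from K326 with ethyl methanesulfonate (EMS), a chemical mutagen, each at 0, 1, 2, 4 and 8 h of drought with 3 libraries per group. M28 is a single mutant line and is described by the submitters as more resistant to drought than K326. Plants of both genotypes were grown in pots of soil at 22 °C with 16 h of light and 8 h of dark, were fully watered before treatment, and were treated at 3 seedlings per pot. The protocol names natural drought and drought simulated by 200 mM mannitol, and no label assigns a library to one of them. Watered plants at later times were not analysed here, so time under drought and time of day cannot be told apart. The labels give leaf as the tissue, while their source field speaks of seeds; since no gene name could be attached to the IDs, leaf markers could not be checked.

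Genes with steady transcript levels in many conditions are often called housekeeping genes. In plants they typically include genes for the cytoskeleton, protein synthesis, protein turnover by ubiquitin and the proteasome, vesicle traffic and central metabolism, and some serve as references to which other transcripts are scaled. Leaves that lose water close their stomata through the hormone abscisic acid, lower the transcripts of photosynthesis and raise those of protective proteins, so a steady abundant transcript stands against a moving background. Tobacco is an allotetraploid that carries near-identical gene copies from its parent species, and the way reads were divided between such copies is not given in the sources used here, which makes the level of any one copy uncertain.

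None of the gene IDs was found in the RefSeq gene table of the assembly ASM71507v2 (0 of 35519), and the deposited table pairs no ID with a name. The steady genes are therefore described by ID, level and behaviour, and no role is given to any of them. FPKM totals per library ran from 753424 to 801680 in M28 and from 801492 to 855427 in K326. The absolute depth is unknown. Relative to the mean library, estimated from low genes, M28 8 h replicate 3 had a depth of 0.483, and the remaining 29 ranged from 0.896 to 1.262. At the levels of the steady genes the lowest single value was 35.65 FPKM, and 0 of the 509 genes were listed at 0 in any library.

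The range of group means among the 509 genes ran from 0.109 to 0.4997 on the log2 scale, with a median of 0.385. The other 2123 abundant genes had a median range of 1.05, and the widest reached 8.465. The limit of 0.5 cut through a continuous distribution. As many as 122 steady genes had a range of at least 0.45, and 125 other abundant genes had a range below 0.55. Just inside the limit, Nitab4.5_0001712g0030 had a range of 0.4997 and Nitab4.5_0001488g0120 a range of 0.4995. Just outside it, Nitab4.5_0000416g0070 stood at 0.5002 and Nitab4.5_0007812g0040 at 0.5014. The limit on level was crossed as smoothly, with Nitab4.5_0000216g0020 (50.08 FPKM) and Nitab4.5_0000194g0150 (50.19 FPKM) just above it and Nitab4.5_0002012g0020 (49.84 FPKM) and Nitab4.5_0000003g0480 (49.80 FPKM) just below. A range below 0.25, which is less than 1.19-fold between the highest and the lowest group, was found for 48 of the 509 genes. Within 0.5 over all 30 single libraries stayed 102 of them, and 35 genes met both of these tighter limits.

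**Figure D1:**
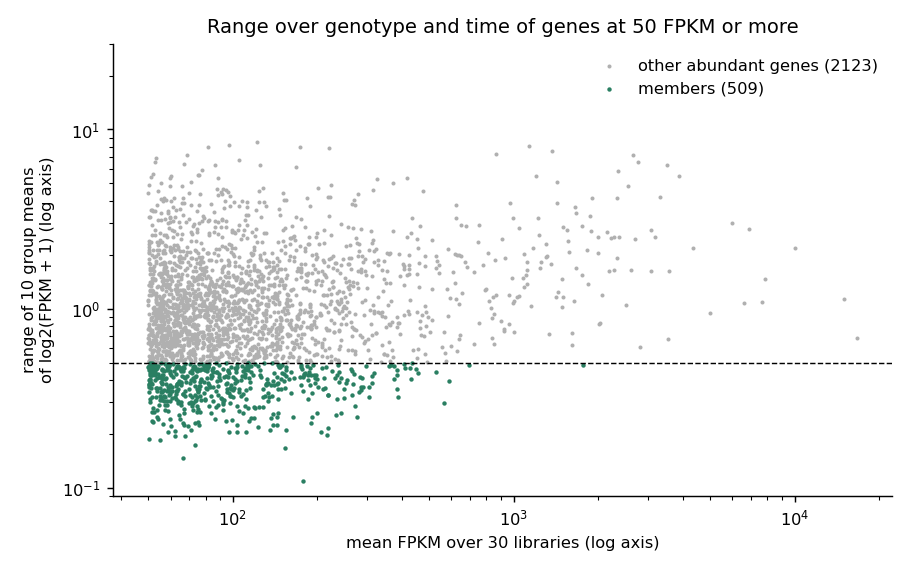
Each point is one gene with a mean of at least 50 FPKM; the horizontal log axis is its mean FPKM over 30 libraries and the vertical log axis the range of its 10 group means of log2(FPKM + 1), with the limit of 0.5 dashed. The 509 steady genes (green) form the lower edge of one cloud, with no gap to the 2123 others (grey), and they thin out above 500 FPKM.

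Steadiness was found less often among the most abundant transcripts. From 50 to 100 FPKM 306 of 1450 genes (21.1%) were steady, from 100 to 200 FPKM 138 of 701 (19.7%), and from 200 to 500 FPKM 60 of 321 (18.7%). At 500 FPKM or more only 5 of 160 (3.12%) were. The median range of all genes in these bands was 0.817, 0.868, 0.973 and 1.63. The level itself entered the choice only through the limit of 50 FPKM, but a higher level also brings a smaller effect of the pseudocount of 1 FPKM. With a pseudocount of 0.1 FPKM the rule gave 498 genes, all among the 509, and with 10 FPKM it gave 638. The shares per band were counted with 1 FPKM only and are given as a description. The steady genes had a median of 83.78 FPKM against 92.76 FPKM for the other abundant genes, and they ended at 1771 FPKM where the others reached 16680.

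The most abundant of them, Nitab4.5_0003917g0010, had a mean of 1771 FPKM. In K326 its 3 libraries held 1436, 1703 and 1754 FPKM at 0 h, 1583, 1431 and 1464 at 1 h, 1699, 1769 and 1491 at 2 h, 1624, 1490 and 1497 at 4 h, and 1851, 1684 and 1692 at 8 h. In M28 they held 1565, 2149 and 2009 FPKM at 0 h, 2221, 1943 and 2108 at 1 h, 1683, 1695 and 1860 at 2 h, 2087, 1764 and 2084 at 4 h, and 2090, 2131 and 1585 at 8 h. The genotypes overlapped at 0 and 8 h through 1 low M28 library each (replicates 1 and 3), and also at 2 h, while at 1 and 4 h every M28 library was above every K326 library. The second most abundant, Nitab4.5_0000559g0240, with a mean of 690.3 FPKM, was arranged the other way round. Its group means went from 841.8 FPKM in K326 at 0 h to 601.5 FPKM in M28 at 8 h, and all K326 libraries at 0 h (778.6, 867.3 and 879.5 FPKM) were above all M28 libraries at 0 h (640.9, 715.5 and 712.2 FPKM).

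The gene with the smallest range, Nitab4.5_0001799g0090, had group means between 172 and 185.8 FPKM, 7.84% apart on the log2(FPKM + 1) scale. In K326 its libraries held 152.7, 188.9 and 203.8 FPKM at 0 h, 204.7, 169.3 and 152.6 at 1 h, 171.1, 188.8 and 167.3 at 2 h, 171.6, 168.8 and 179.7 at 4 h, and 194.5, 183.5 and 172.8 at 8 h. In M28 they held 151.2, 186.9 and 183.6 FPKM at 0 h, 180, 175.5 and 201.8 at 1 h, 164.4, 179.6 and 174.2 at 2 h, 177, 162.3 and 176.8 at 4 h, and 180.2, 176.1 and 197.4 at 8 h. All 10 groups overlapped, and replicates of K326 at 0 h or 1 h differed by more than any pair of group means. Its replicate SD of 0.129 (log2, pooled over groups) was above the median of the steady genes. It was also larger than the gene's own range of group means, 0.109. The next smallest range, 0.146, belonged to Nitab4.5_0000755g0010, with group means from 62.43 FPKM in K326 at 0 h to 69.20 FPKM and a replicate SD of 0.0826.

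A gene may also be steady relative to the other steady genes within each library, which dividing a library by a single factor leaves as it is, apart from the effect of the pseudocount. By that measure, the mean SD over 30 libraries of the log2 ratio to each of the other 508 genes, Nitab4.5_0000293g0030 (0.149) and Nitab4.5_0000075g0150 (0.150) came first. For Nitab4.5_0000293g0030 the K326 libraries held 142.6, 154.7 and 144.7 FPKM at 0 h, 150, 153.3 and 145.9 at 1 h, 140.3, 159.5 and 159.8 at 2 h, 144.4, 146.9 and 148.8 at 4 h, and 153.8, 146.1 and 150.7 at 8 h. The M28 libraries held 149.4, 158.1 and 167.3 FPKM at 0 h, 163.5, 160.6 and 170.8 at 1 h, 163.3, 163.8 and 153.1 at 2 h, 155.5, 150.6 and 150.9 at 4 h, and 153, 150.5 and 143.9 at 8 h. The 30 libraries spanned 0.282 on the log2 scale, and M28 at 1 h was above all K326 libraries. Nitab4.5_0000075g0150 lay between 137.5 and 169.3 FPKM in all libraries, with its lowest group mean (143.2 FPKM) in K326 at 1 h.

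The replicates of a group differed among the steady genes by a pooled SD of 0.0971 at the median (log2, 20 residual degrees of freedom), from 0.0439 to 0.245. The other abundant genes had a median of 0.122 and reached 1.067. Since replicate error also spreads the group means, noisy genes were less likely to be chosen. The least variable between replicates, Nitab4.5_0002783g0070 (SD 0.0439), still moved between groups. Its M28 libraries went from 183.7, 179.5 and 180.3 FPKM at 0 h to 141.6, 143.6 and 136.7 FPKM at 8 h without overlap, while its K326 libraries held 138.3, 151.5 and 150.8 FPKM at 0 h and 157.7, 145.3 and 149.3 FPKM at 8 h. Nitab4.5_0002017g0050 (SD 0.0480) held 116.9, 118.7 and 114.3 FPKM at 0 h and 135.4, 136 and 141.5 FPKM at 8 h in K326, and 149.8, 149.1 and 153.2 FPKM at 0 h in M28, so that the K326 libraries at 8 h were still below those of M28 at 0 h.

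At the other end, Nitab4.5_0000540g0120 (SD 0.245) ranged from 58.19 FPKM in M28 0 h replicate 1 to 121.7 FPKM in K326 0 h replicate 2. Its replicates at 0 h held 84.87, 121.7 and 81.64 FPKM in K326 and 58.19, 85.56 and 81.81 FPKM in M28. Nitab4.5_0001078g0050 (SD 0.205) ranged from 69.68 FPKM in M28 8 h replicate 3, the library of low relative depth, to 154.5 FPKM in K326 0 h replicate 2. Over the 30 libraries these genes spanned 1.051 and 1.138 on the log2 scale.

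**Figure D2:**
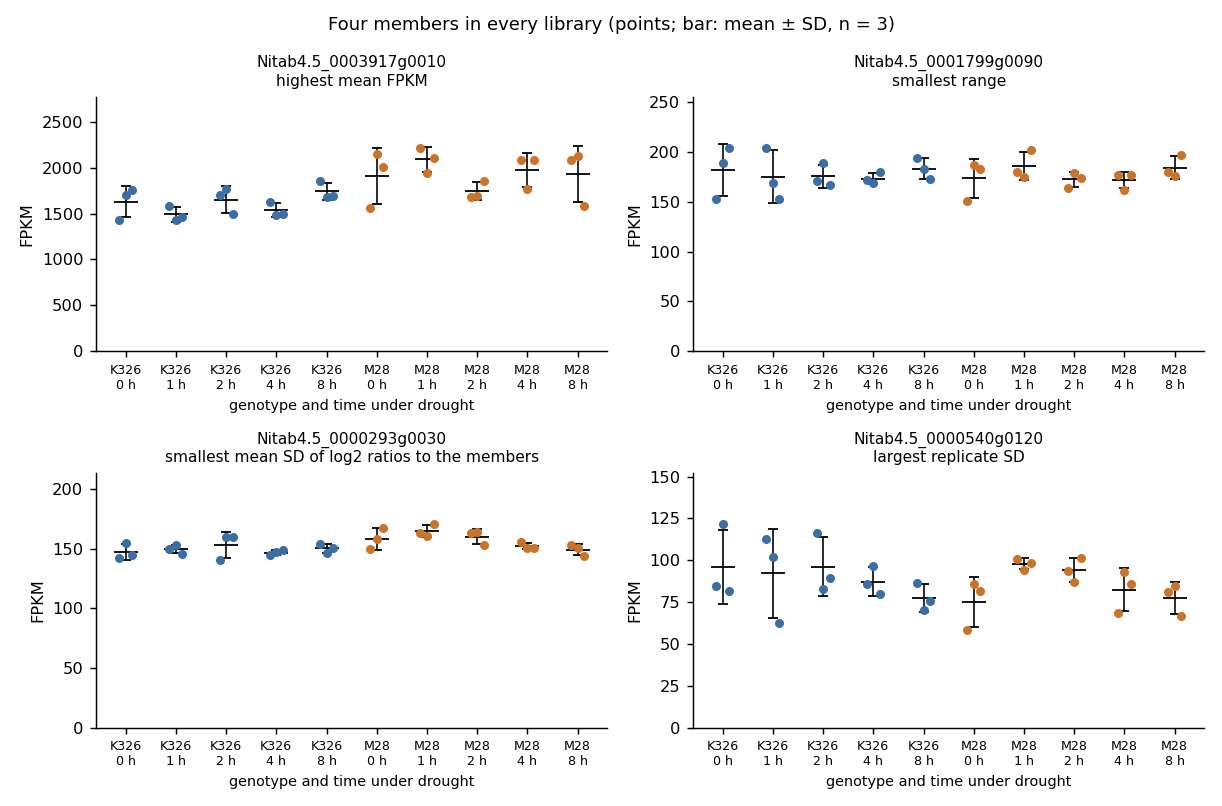
FPKM of 4 steady genes in each of the 30 libraries (points, K326 blue and M28 orange), with the mean and SD of 3 libraries per group as black bars and axes starting at 0. Nitab4.5_0003917g0010 is the most abundant and Nitab4.5_0001799g0090 has the smallest range of group means; Nitab4.5_0000293g0030 is the steadiest relative to the others, and Nitab4.5_0000540g0120 differs the most between replicates.

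Summed over the 509 genes, the libraries held between 56677 and 66918 FPKM. In K326 the sum was 61130 ± 3473 FPKM (SD, n = 3) at 0 h and 60150 ± 3416 FPKM at 1 h, followed by 62740 ± 1305 at 2 h, then 59120 ± 1056 at 4 h and lastly 60970 ± 1487 at 8 h. In M28 it was 62010 ± 2870 FPKM at 0 h and 65700 ± 1672 FPKM at 1 h, followed by 61130 ± 414.4 at 2 h, then 61080 ± 1598 at 4 h and lastly 62070 ± 1614 at 8 h. Apart from M28 at 1 h, group means lay between 59120 and 62740 FPKM, a span close to the SD of the K326 groups at 0 and 1 h. At 0 h the replicates of each genotype were spread by 1 low library. Summed values there were 57149 FPKM in K326 0 h replicate 1 and 58700 in M28 0 h replicate 1. In K326 at 1 h the sums were spaced more evenly, at 63506, 60267 and 56677 FPKM. In the K326 and M28 0 h groups the low library was also the one in which the other abundant genes held the largest share of the total (70.25 and 64.02%). Whether this share played a part in the low sums was not tested.

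The steady genes held a small share of the FPKM total. In K326 it was 7.23% ± 0.479 (SD, n = 3) at 0 h and 7.15% ± 0.503 at 1 h, followed by 7.52% ± 0.179 at 2 h, then 7.08% ± 0.108 at 4 h and lastly 7.60% ± 0.18 at 8 h. In M28 it was 7.87% ± 0.479 at 0 h and 8.25% ± 0.216 at 1 h, followed by 7.75% ± 0.0797 at 2 h, then 7.83% ± 0.233 at 4 h and lastly 8.18% ± 0.152 at 8 h. In both genotypes the mean at 4 h was below that at 0 h, and the difference between 0 and 8 h was smaller than the SD at 0 h. Over the same times the share of the other abundant genes went from 68.17% ± 1.85 to 62.06% ± 0.255 in K326 and from 61.64% ± 2.08 to 56.81% ± 0.476 in M28.

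**Figure D3:**
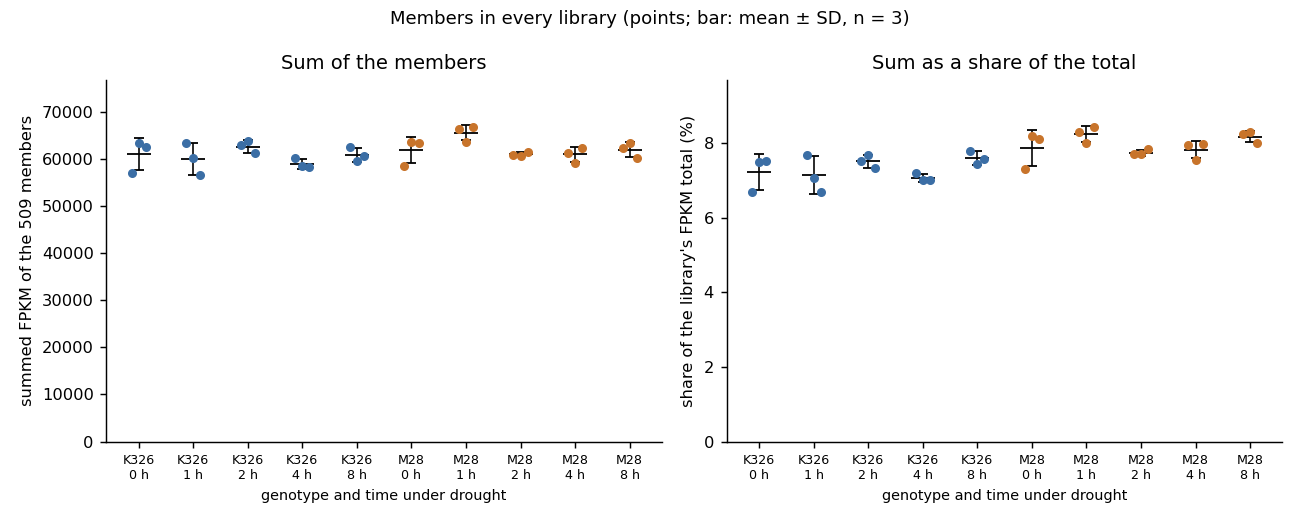
Summed FPKM of the 509 steady genes (left) and that sum as a percentage of the FPKM total (right) in each of 30 libraries (points, K326 blue and M28 orange), with mean and SD of 3 libraries as black bars and axes starting at 0. The sums lie between 56677 and 66918 FPKM with M28 at 1 h on top, while the share of the total is higher in M28 than in K326 at each time by its group means. The totals that divide the sums ran from 753424 to 801680 FPKM in M28 and from 801492 to 855427 FPKM in K326. At 2 h the sum itself was lower in M28 by its group mean.

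Within their narrow limits the genes did not vary evenly over the groups. The highest group mean was that of M28 at 1 h for 117 genes (23%), and the lowest was that of K326 at 0 h for 130 (25.5%). Among the other abundant genes these groups were the highest in 11.4% and the lowest in 29.0%. In 252 of the 509 genes the highest group was from M28 and the lowest from K326, in 119 it was the reverse, and in 138 both were from the same genotype. The median gene stood 0.095 above its own mean in M28 at 1 h (0.053 to 0.117 in its 3 libraries), and every other group median lay between -0.053 and 0.023. The lowest M28 1 h library (63798 FPKM summed) overlapped with the highest of the other groups (63854 FPKM in K326 2 h replicate 2). This pattern depended on the scaling. The number with M28 at 1 h on top was 120 after rescaling to equal totals, 69 after quantile normalization and 30 after median-of-ratios scaling, where K326 at 0 h was on top in 212 and M28 at 8 h lowest in 257.

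Small differences could still exceed the spread between replicates. The moderated F and contrast tests of limma were run on the 19599 genes whose mean reached 1 FPKM, with all 30 libraries in one fit and Benjamini-Hochberg adjustment over all genes tested, and genes with an adjusted p below 0.05 were called. All 509 steady genes passed that filter. Over the K326 time course 296 of them (58.2%) were called, where 69.7% of all genes tested were. Over the M28 time course it was 231 (45.4%) against 59.9%. Between the genotypes, averaged over times, it was 279 (54.8%) against 68.1%, and for the interaction of genotype and time 54 (10.6%) against 10.2%. Among the other abundant genes 95, 88.4, 81 and 27.2% were called in these comparisons. The choice of the genes used the same group means, so these shares are given as a description only. No label ties a library to separate plants or a separate experiment, so each p reflects only how these 3 libraries per group differed, which may be partly technical.

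Of the 509 genes, 68 (13.4%) were called in none of these 4 comparisons, 145 in 1, 187 in 2, 95 in 3 and 14 in all 4. Of all genes tested, 1959 of 19599 (10%) were called in none, and of the other abundant genes 3 of 2123. A moderated F test over any difference among the 10 groups, which was added after the genes had been counted, called 423 of the 509 (83.1%) and 86.6% of all genes tested. The standard error of a difference between 2 groups was 0.0808 at the median of the steady genes and its 95% interval reached 0.166 to either side, so that smaller differences could not be resolved for the median gene. From 0 to 8 h the 95% interval lay wholly within 0.5 of no difference for 433 genes in K326 and for 462 in M28, as it did for 434 genes between M28 and K326 at 0 h. Averaged over times, the difference between the genotypes had such an interval in all 509. The rule already held each of these differences below 0.5, and intervals taken after such a choice need not hold at 95%. The interval counts therefore describe the set and do not test its steadiness.

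**Figure D4:**
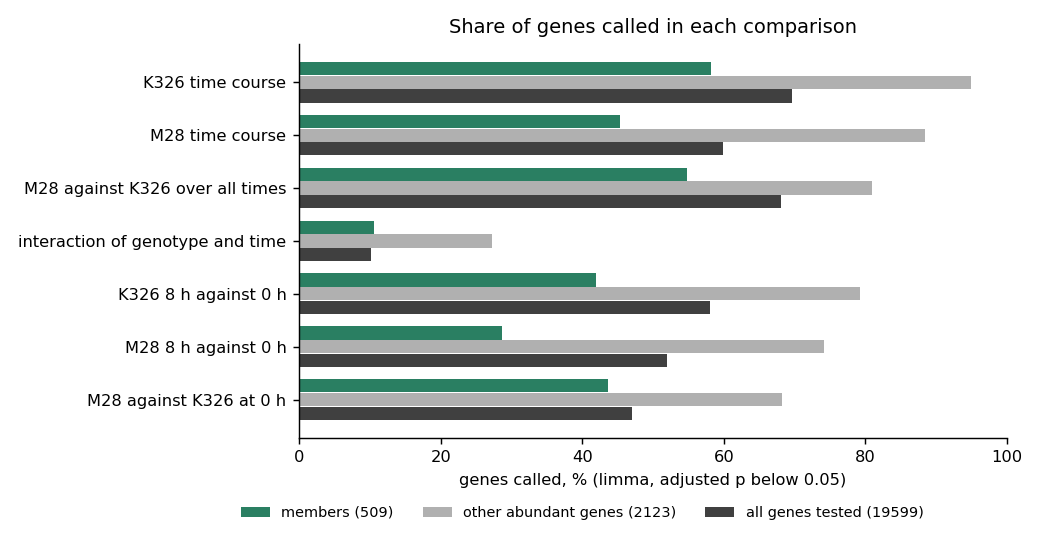
Horizontal bars give the percentage of genes called by limma (adjusted p below 0.05) among the 509 steady genes (green), the 2123 other abundant genes (grey) and all 19599 genes tested (black) in 7 comparisons. The steady genes are called less often than the other abundant genes in each, by construction of the set, and still reach 58.2% over the K326 time course.

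The largest called differences show what size the rule let through. From 0 to 8 h in K326, 214 steady genes (42%) were called, where 58.1% of all genes tested were. The 138 called higher were 27.1% of the steady genes, where 41.5% of all genes tested were called higher. The 76 called lower were 14.9% of the steady genes, against 16.7% of all genes tested. Nitab4.5_0003194g0060 stood at 46.3, 51.62 and 45.95 FPKM at 0 h and at 69.23, 65.31 and 67.93 FPKM at 8 h in K326, without overlap (log2 difference 0.49, SE 0.0607). In M28 the same gene held 56.15, 64.02 and 65.09 FPKM at 0 h and 65.26, 63.78 and 59.69 FPKM at 8 h, with overlap. Nitab4.5_0001440g0040 went the other way in K326, from 98.46, 124.2 and 103.5 FPKM to 82.13, 67.6 and 80.53 FPKM (log2 difference -0.495, SE 0.0978), also without overlap. Its M28 libraries at 0 and 8 h lay between 82.75 and 97.12 FPKM.

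From 0 to 8 h in M28, 146 steady genes (28.7%) were called, where 52% of all genes tested were. The 66 called higher were 13% of the steady genes, against 33.2% of all genes tested. The 80 called lower were 15.7% of the steady genes, against 18.9% of all genes tested. Without M28 0 h replicate 1, 43 were higher, and 45.8% of all genes tested were called in either direction. Nitab4.5_0000400g0050 stood at 54.45, 53.82 and 57.25 FPKM at 0 h and at 77.54, 81.3 and 68.72 FPKM at 8 h (log2 difference 0.45, SE 0.0837). Nitab4.5_0000130g0290 stood at 77.62, 72.46 and 93.61 FPKM and at 50.68, 62.24 and 59.57 FPKM (log2 difference -0.49, SE 0.0846). In neither gene did the times overlap in M28, and in K326 Nitab4.5_0000400g0050 held 79.76, 69.42 and 75.19 FPKM at 0 h and 68.18, 71.29 and 72.9 FPKM at 8 h, with overlap. Nitab4.5_0000130g0290 did not overlap in K326 either, at 76.33, 73.85 and 73.09 FPKM at 0 h and 60.56, 63.72 and 59.28 FPKM at 8 h (log2 difference -0.28, SE 0.0846, limma adjusted p = 0.00661).

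Between the genotypes at 0 h, 222 steady genes (43.6%) were called, where 47% of all genes tested were. The 157 called higher in M28 were 30.8% of the steady genes, against 38.3% of all genes tested. The 65 called lower were 12.8% of the steady genes, against 8.71% of all genes tested. The lower count moved with single libraries, with 37 genes without K326 0 h replicate 2 and 39 without M28 0 h replicate 1. In these fits 42.7 and 45.9% of all genes tested were called in either direction. Nitab4.5_0000410g0410 held 91.11, 101.6 and 103 FPKM in K326 and 128.6, 143.8 and 139.9 FPKM in M28 (log2 difference 0.48, SE 0.0615). Its M28 libraries lay between 113.1 and 143.8 FPKM over all times and its K326 libraries between 91.11 and 112.6 FPKM, so the genotypes did not overlap. Nitab4.5_0001488g0120 held 487.6, 553.5 and 518.3 FPKM in K326 and 343, 392.9 and 370.8 FPKM in M28 (log2 difference -0.49, SE 0.0748). At 8 h its genotypes overlapped, at 380, 352.3 and 376.4 FPKM in K326 and 389.9, 361.1 and 359.9 FPKM in M28.

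The split between higher and lower calls followed the scaling. With the deposited values 64.5% of the steady genes called from 0 to 8 h in K326 were higher, against 79.5% after rescaling to equal totals, 32.5% after quantile normalization and 4.69% after median-of-ratios scaling. For M28 from 0 to 8 h these shares were 45.2, 70.2, 25.3 and 9.59%. For M28 against K326 at 0 h they were 70.7, 88, 50 and 1.98%, and averaged over times 72.0, 94.1, 48.2 and 3.51%. As deposited, 201 steady genes (39.5%) were called higher over all times and 78 (15.3%) lower, against 54.2 and 14% of all genes tested. The median log2 difference of all genes tested in M28 against K326 at 0 h was 0.224 as deposited and 0.002 after median-of-ratios scaling, which centres the genes by construction. The median steady gene stood at 0.067 and -0.188. After quantile normalization the medians were -0.006 for the steady genes and 0.017 for all genes tested. The rule itself holds the steady genes near no difference in the deposited values, so nothing is read from their distance to the median gene. The 6 genes given in the preceding comparisons kept their direction under each of these scalings.

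Which genes count as steady depended on the scaling as well. The same rule gave 473 genes after median-of-ratios scaling, of which 287 were among the 509 (60.7% of the former and 56.4% of the latter). It gave 549 genes after quantile normalization with 440 shared (80.1 and 86.4%), and 410 genes after rescaling to equal totals with 374 shared (91.2 and 73.5%). Under all 4 sets of values 179 genes qualified, 35.2% of the 509, and under at least 1 of them 754. These 179 genes had a median range of 0.323 and a median level of 79.95 FPKM, and included 37 of the 48 genes with a range below 0.25. Their sum lay between 16652 and 20052 FPKM in all libraries. With the deposited values 100 of the 179 were called between the genotypes over all times, where 68.1% of all genes tested were. Of these 100 genes, 90 were higher in M28 and 10 lower. Among all genes tested, 54.2% were called higher and 14% lower. For any difference among the 10 groups 125 of the 179 were called, against 86.6% of all genes tested. K326 at 0 h was the lowest group in 61 of the 179 and the highest in 1, against 130 and 52 of the 509. In that group the median steady gene stood at -0.042 from its own mean as deposited and at 0.158 after median-of-ratios scaling. Genes already highest there could thus pass the limit of 0.5 under that scaling and drop out. The requirement to qualify under all 4 sets of values shaped this count and the split of 90 to 10, so nothing is read from them.

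Single genes moved with the scaling in either direction. Nitab4.5_0000559g0240, with a range of 0.483 as deposited, had 0.879 after median-of-ratios scaling, 0.348 after quantile normalization and 0.373 with equal totals. Nitab4.5_0003917g0010, with a range of 0.485 as deposited, had 0.297 after median-of-ratios scaling, 1.23 after quantile normalization and 0.565 with equal totals. Nitab4.5_0007812g0040, just outside the limit with the deposited values, had a range of 0.145 after median-of-ratios scaling. Nitab4.5_0001799g0090 kept a range of at most 0.384 and Nitab4.5_0000293g0030 of at most 0.377 under all 4 sets of values. The profile of the median steady gene shows the same dependence. After median-of-ratios scaling it fell from 0.158 above its own mean in K326 at 0 h to -0.043 at 8 h and from -0.043 to -0.170 in M28, and with equal totals it went from -0.109 to -0.006 in K326 and from 0.047 to 0.111 in M28.

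**Figure D5:**
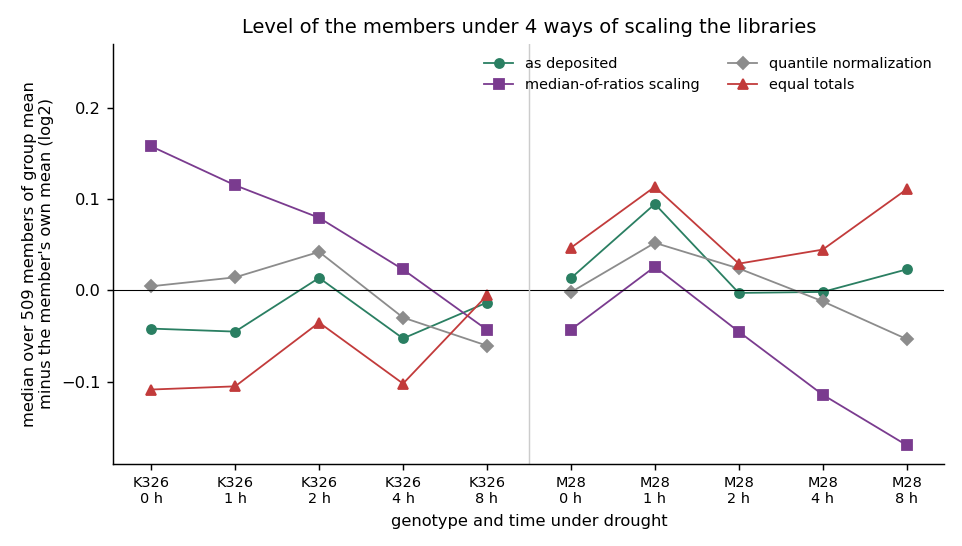
The vertical axis is the median over the 509 steady genes of the group mean minus the gene's own mean on the log2 scale, for each genotype and time (horizontal axis), with one line per way of scaling the libraries. The lines lie within 0.17 of 0 and go in opposite directions from 0 to 8 h after median-of-ratios scaling (purple) and with equal totals (red), with the deposited values (green) between them at each time.

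Dividing a library by a single factor leaves the ratios between its genes as they are, apart from the effect of the pseudocount, while quantile normalization changes them. The ratios given here were taken from the deposited values. The mean SD of a gene's log2 ratios to the steady genes was 0.194 at the median for the steady genes themselves and 0.376 for the other abundant genes. Of the 509 abundant genes that were steadiest by this measure, 436 (85.7%) belonged to the 509. When ratios to all 2632 abundant genes were used instead, which was added after the first result, 421 (82.7%) did. Of the 179 genes that qualified under all scalings, 178 and 176 were in these lists. Of the 509 abundant genes with the smallest span of ranks, 205 (40.3%) were steady genes. Between its highest and lowest rank among the abundant genes of a library, the median steady gene crossed 19.7% of these genes, and the median other gene 38.8%. Nitab4.5_0000559g0240 (690.3 FPKM) crossed 1.48% and Nitab4.5_0000540g0120 (87.62 FPKM) crossed 43.0%. Only 160 of the 2632 abundant genes reached 500 FPKM, so a gene at a high level has few others to cross. Nitab4.5_0001799g0090, with the smallest range of group means, crossed 7.9% at 177.9 FPKM. The span of ranks thus reflects level as well as steadiness, also in the share of 40.3%. The same libraries chose the genes, so these values describe the set and do not test it.

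Steadiness in one genotype could be set beside the other, which that choice had not used. At 50 FPKM or more in K326, 994 of 2547 genes had 5 K326 group means within 0.5, and 810 of these (81.5%) also had 5 M28 group means within 0.5. Among all 2547 genes 43.1% did, and among the 1553 that were not steady in K326 18.6%. In the other direction, 1245 of 2727 genes were steady in M28, and 912 of these (73.3%) were steady in K326, against 40.3% of all genes at that level. Genes chosen in K326 had a median range of 0.331 in K326 and 0.319 in M28. Those chosen in M28 had 0.309 in M28 and 0.376 in K326. A range of 1 or more in the other genotype was found for 2 genes chosen in K326 and for 15 chosen in M28. Under the other scalings the shares lay between 79.2 and 85.0% for genes chosen in K326 and between 70.4 and 76.4% for genes chosen in M28. Both genotypes were sampled at the same times, so steadiness over the day and steadiness under drought cannot be told apart here either.

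Each ID holds a scaffold field followed by a running gene number, which the rule did not use. The 509 genes had 427 different scaffold fields. Of the 478 whose next gene number was in the table, 14 (2.93%) had another steady gene there, where 1.8% of the other abundant genes had a steady gene next to them. The next gene was abundant for 9.62% of the steady genes and for 11.0% of the other abundant genes. Only the following gene number was looked at. The 509 are few among the 35519 gene IDs, so a next gene outside the set is the usual case for any gene. Nothing is read from these shares.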

How the data were processed

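RNA-seq of 30 tobacco leaf libraries was used as one table of FPKM values that the authors deposited, with one column per library and no pooling of replicates. The tools named in the submitters' processing notes are featureCounts, HISAT2, Trimmomatic and FastQC; their settings, the build and how FPKM were made are not given in the sources used here. That unit comes from the authors' name for the table, and TPM over a larger gene set could not be told from it by the values. Groups and replicate numbers came from the sample titles. The rule for members (mean of at least 50 FPKM, 10 group means of log2(FPKM + 1) spanning less than 0.5) and the lists were chosen with earlier results of these data known. The prepared gene lists and cell type markers could not be matched to IDs and gave no result.

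Tests used log2(FPKM + 1), so the pseudocount was 1 FPKM, and genes whose mean reached 1 FPKM, with limma 3.58.1 in R 4.3.3 (empirical Bayes, mean-variance trend); fold changes are on this scale. The fit was tested on simulated data. Named genes were at most 2 IDs at each end of orders by level, range, ratio SD and replicate SD, those next to the limits, and the largest called difference in each direction of 3 contrasts. Alternatives were other pseudocounts, filters, scalings, fits and limits, a replicate block, and each library left out. Relative depth was fitted from whole-read ratios in 2687 low genes; 90.3% of 435 library pairs fitted within 0.01 (log2). No counting interval was computed, since the depth in reads is unknown.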

Additional observations from a re-analysis of the deposited data

Results flagged for a closer look

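The interaction of genotype and time (limma, moderated F over 4 contrasts) was called in 54 of the 509 steady genes (10.6%). It was called in 10.2% of all genes tested, a share close to that of the steady genes. Nothing particular to the steady genes is read from the count. The group means that chose the genes also enter this test. The count depended on single libraries. It was 28 without M28 0 h replicate 3, 34 without M28 2 h replicate 2, 34 without K326 0 h replicate 3, 35 without K326 2 h replicate 2 and 84 without K326 1 h replicate 1. Of all genes tested, 6.9, 8.41, 8.8, 8.39 and 12% were called in the same fits, so the share over all genes moved as well.

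Among the genes given by ID, 7 were called in this test. Their adjusted p (limma) was 0.00204 for Nitab4.5_0002783g0070, 0.00353 for Nitab4.5_0001488g0120, 0.00421 for Nitab4.5_0002017g0050 and 0.00497 for Nitab4.5_0003194g0060. It was 0.0406 for Nitab4.5_0000216g0020, 0.0431 for Nitab4.5_0000400g0050 and 0.046 for Nitab4.5_0001440g0040. Nitab4.5_0000216g0020 held 54.13, 66.84 and 57.36 FPKM in K326 at 0 h and 47.4, 43.11 and 43.32 FPKM at 8 h, and in M28 43.56, 46.96 and 47.97 FPKM and 44.01, 47.21 and 54.7 FPKM.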

How the results depend on the processing

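The number of steady genes was set by its limits. It was 48 and 1497 with range limits of 0.25 and 1, 203 and 2145 with level limits of 100 and 10 FPKM, 102 when the 30 single libraries had to lie within 0.5, and 179 under all 4 scalings at once. With each library left out in turn it lay between 487 and 520. Without the mean-variance trend the interaction was called for 28 of the genes instead of 54, and with single libraries left out for 28 to 84. Of all genes tested, 8.45% were called without the trend and 6.9 to 12% with single libraries left out. With single libraries left out, the other counts lay between 259 and 311 (K326 time course), 199 and 255 (M28 time course), 261 and 281 (genotypes over all times), 185 and 224 (K326 8 h), 117 and 156 (M28 8 h), 178 and 231 (genotypes at 0 h) and 411 and 446 (any difference). The share called of all genes tested moved as well. In the same order it lay between 65.8 and 71.1%, 56.3 and 60.8%, and 66.5 and 68.4%. For the last 4 it lay between 53.3 and 59.1%, 45.8 and 52.7%, 38.7 and 48.4%, and 85.3 and 86.6%. The other counts of calls, over both directions together, stayed within 1.5 times of the reported ones under each alternative tried. Counts in 1 direction followed the scaling, as given above. Apart from scaling, those that moved by more than 1.5 times were the 65 lower in M28 at 0 h (37 with only the groups compared in the fit, 37 without K326 0 h replicate 2 and 39 without M28 0 h replicate 1), the 66 higher in M28 at 8 h (43 without M28 0 h replicate 1) and the 80 lower there (52 with only the groups compared). In the same fits 40.4, 42.7 and 45.9% of all genes tested were called in either direction at 0 h. For M28 at 8 h it was 45.8 and 45.2%. The 6 named differences kept their direction and call in each of 40 alternatives, and the ranges of named genes moved by more than 1 replicate SD in 40 of 115 cases, not counting libraries left out. Replicate numbers did not pair libraries across groups: deviations of same-numbered libraries correlated between -0.298 and 0.207, and 12 of 30 libraries were closest to their own number. With the replicate block the interaction was called for 42 genes and the K326 and M28 courses for 286 and 223, where 9.27, 68.9 and 59.3% of all genes tested were. The unknown absolute depth limits statements on precision.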
